A study of Mus musculus with 12 samples.

Results

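Ribosome footprints of activated CD4 T cells were compared between 3 *Rnmt* cKO and 3 control libraries, out of 12 libraries in the series, across the 49585 genes for which the deposited files list counts. A ribosome-protected fragment (RPF) is the short piece of RNA that stays covered by a ribosome when the rest of the message is digested, and its sequencing counts ribosomes on each gene. The other 6 libraries hold cytoplasmic total RNA of the same kinds of cell and are used only where stated. The members were all genes, read on the strand of the gene, and 11428 of them had enough reads to be tested.

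Every mouse carried *Rnmt* fl/fl, a pair of conditional alleles with loxP sites on either side of exon 3, on a C57B6/J background; their age, and the sex of the mice of these libraries, are not given in the sources used here. The *Rnmt* cKO group (CD4cre +) also carried the Cre recombinase transgene Tg(Cd4-cre)1Cwi, driven by Cd4 sequences, whereas the control group (CD4cre -) did not. This Cre acts in developing thymocytes, so the cells had lost the exon before they were activated, and controls for Cre alone are not among these libraries. Naive CD4 T cells were isolated from lymph nodes with a magnetic kit and cultured for 20 h on plates coated with anti-CD3 (5 ug/ml) together with anti-CD28 (1 ug/ml). Cycloheximide, which holds ribosomes in place on the message, was given at 0.1 mg/ml for 1 min before lysis. The labels number the libraries 1 to 3 in each genotype without naming the animals, so p-values measure the spread between these libraries.

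Nuclear transcripts made by RNA polymerase II receive a guanosine cap at their first base, and RNMT, with its small activating subunit RAM, methylates that guanosine at N-7. The methylated cap is bound by the nuclear cap-binding complex during processing and by eIF4E when ribosomes are recruited. On activation, a naive T cell leaves quiescence and increases ribosome production, protein synthesis and metabolism before it divides and makes cytokines.

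The RPF libraries held 10661356, 6786164 and 8214622 reads on genes in controls and 8349463, 10166729 and 4123271 in *Rnmt* cKO cells. Nuclear protein-coding genes took 93.0, 90.3 and 92.2% of these reads in controls and 92.9, 92.7 and 88.9% in *Rnmt* cKO cells. *Rnmt* cKO replicate 3 stood apart, as it was the shallowest library and held the most reads of miRNA genes, at 1.02% of its counts against 0.0175 to 0.210% in the rest. Markers of B cells separated the libraries in another way: the summed level of 6 B cell genes was 12.2, 8.59 and 42.4 CPM (normalised read counts, scaled to the size of each library) in controls and 132, 146 and 23.6 CPM in *Rnmt* cKO cells. *Rnmt* cKO replicates 1 and 2 were thus high, and replicate 3 lay within the control range. The defining T cell markers Cd3d, Cd3e, Cd3g, Cd247, Cd4, Cd5 and Lck each had at least 659 reads in every library. Of these 7 genes, 4 were lower in *Rnmt* cKO cells (Cd3d, Cd3g, Cd5 and Lck) and 0 higher, when 15.7% of all genes tested were lower and 14.1% higher. Their summed level was 5463, 4972 and 5225 CPM in controls and 4013, 3607 and 4013 CPM in *Rnmt* cKO cells.

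*Rnmt* itself (ENSMUSG00000009535, chromosome 18 of GRCm38, 68300355 to 68324852, plus strand) checks the labels. Its RPF level was 104, 87.9 and 98.9 CPM in controls and 10.5, 10.4 and 9.60 CPM in *Rnmt* cKO cells. All 3 *Rnmt* cKO libraries lay far below the lowest control, with little spread in either group. The fitted log2 fold change was -3.24 (standard error 0.10, edgeR adjusted p = 4.8e-06). The count covers the whole gene, so the remaining RPF may lie on exons outside the deleted one; where on the transcript was not analysed here. Ramac, which encodes RAM, had 22.7, 13.9 and 12.5 CPM in controls against 19.2, 12.7 and 14.8 CPM, with full overlap between the groups (-0.08 ± 0.25 (SE), adjusted p = 0.83).

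Among the T cell genes checked in each library, Cd4 was close to level, at 694, 668 and 627 CPM in controls and 648, 637 and 674 CPM in *Rnmt* cKO cells (log2 fold change -0.02 ± 0.06 (SE)). Cd3e, a signalling chain of the T cell receptor, overlapped between the groups as well (-0.17 ± 0.10 (SE)). The activation markers were higher in every *Rnmt* cKO library. Cd69, an early surface marker, had 119, 96.9 and 139 CPM in controls against 206, 187 and 200.3 CPM (0.74 ± 0.12 (SE), edgeR adjusted p = 0.0027). Il2ra, the alpha chain of the IL-2 receptor (CD25), had 245, 266 and 263 CPM in controls and 435, 486 and 411 CPM in *Rnmt* cKO cells (0.78 ± 0.08 (SE), edgeR adjusted p = 2.9e-04).

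Over all genes, RPF was higher in *Rnmt* cKO cells for 1612 genes (14.1% of those tested) and lower for 1796 (15.7%), in all 29.8%, by edgeR's quasi-likelihood test at an adjusted p under 0.05. Most differences were modest: 1757 of the 3408 changed genes (51.6%) differed by less than 1.5-fold. More than 2-fold were 454 of the rises and 314 of the falls, and more than 4-fold 157 and 34. Large differences were therefore more often rises. Among the 10321 protein-coding genes, 1499 were higher (14.5%) and 1720 lower (16.7%), with a median log2 fold change of -0.0002 and an interquartile range of -0.26 to 0.25. The libraries of the genotypes did not overlap for 5316 genes (46.5%), more than passed the test. Normalisation centres the fold changes on the bulk of genes, so each is relative to the other footprints of its library and a change in the number of ribosomes per cell is not included.

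The share of genes called followed the depth behind them. Below an average of 2 log2 CPM, 13.3% of 1777 genes were called, where the fold changes had a median standard error of 0.44 (log2). At 4 to 6 log2 CPM this was 33.3% of 3755 genes, and at 8 or above 39.5% of 774 genes, with a median standard error of 0.07. A gene of low abundance that was not called may thus have changed by an amount not detectable at this depth.

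The 10 largest protein-coding rises were taken among genes with an average of at least 4 log2 CPM and no overlap between the genotypes. Lad1, which encodes the anchoring filament protein ladinin, had 9.02, 10.4 and 12.3 CPM in controls against 138, 227 and 129 CPM (3.98 ± 0.25 (SE)). Its groups were far apart, although *Rnmt* cKO replicate 2 was higher than the other two. Lad1 (ENSMUSG00000041782) lies on chromosome 1 at 135818598 to 135833342. Ifng, the cytokine interferon gamma (chromosome 10, 118441046 to 118445892), had 3.01, 2.26 and 2.33 CPM in controls and 41.3, 39.4 and 29.8 CPM in *Rnmt* cKO cells. Its *Rnmt* cKO libraries stood within a narrow band far above all controls (3.84 ± 0.19 (SE), edgeR adjusted p = 2.7e-05). Gadd45g and Gadd45b, which belong to a family of stress-induced proteins, had log2 fold changes of 3.66 and 3.26. For Gadd45b the values were 21.1, 22.5 and 32.00 CPM in controls against 213, 268 and 244 CPM. Arc, an immediate early gene best known in neurons, had 3.94, 4.22 and 6.86 CPM in controls and 46.5, 51.5 and 64.7 CPM in *Rnmt* cKO cells (3.43 ± 0.22 (SE)).

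A pair of TNF superfamily ligands followed. Tnfsf11, the ligand RANKL, had 12.9, 14.2 and 10.4 CPM in controls against 112, 111 and 123 CPM, which differed by far less within groups than between them (3.20 ± 0.12 (SE), edgeR adjusted p = 7.6e-06). Tnfsf4, the ligand of OX40, had 9.30, 11.9 and 10.9 CPM in controls and 85.3, 96.4 and 101 CPM in *Rnmt* cKO cells (3.14 ± 0.12 (SE)). The last of the 10 were more scattered among the *Rnmt* cKO libraries. Marcks, a substrate of protein kinase C, had 3.38, 4.67 and 7.72 CPM in controls against 46.3, 70.7 and 15.3 CPM, and *Rnmt* cKO replicate 3, which was low for B cell markers, was also the lowest for Marcks. Hemk1, a methyltransferase of a translation release factor, had 4.88, 8.89 and 3.68 CPM in controls and 33.8, 81.9 and 28.5 CPM in *Rnmt* cKO cells, and Serpinb9, an inhibitor of granzyme B, had 13.1, 17.9 and 25.4 CPM in controls against 118, 240.1 and 83.9 CPM. Replicate 2 was the highest *Rnmt* cKO library for all 3 of these genes, and the part of the B cell markers in them was not tested.

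Of the largest falls, Ifi214 (chromosome 1, 173519717 to 173535957), an interferon-inducible gene of the p200 family, headed the list with 30.7, 27.4 and 30.4 CPM in controls and 3.28, 2.44 and 2.95 CPM in *Rnmt* cKO cells (-3.36 ± 0.16 (SE), edgeR adjusted p = 2.5e-05). After *Rnmt* came Dapl1 (chromosome 2, 59484653 to 59505020), a gene of the naive T cell list, with 94.8, 106 and 97.2 CPM in controls against 12.9, 8.30 and 10.8 CPM (-3.23 ± 0.15 (SE)). Both were tight within each group. Nt5e, the ecto-enzyme CD73, had 24.9, 62.3 and 19.2 CPM in controls and 3.51, 4.59 and 6.89 CPM in *Rnmt* cKO cells; control replicate 2 was high, yet no *Rnmt* cKO library reached the lowest control. Selenop, a selenium-carrying plasma protein, had 114, 105 and 95.2 CPM in controls against 23.3, 17.8 and 23.1 CPM (-2.31 ± 0.12 (SE)). Ifi209, a neighbour of Ifi214 in the p200 cluster, had a log2 fold change of -2.23. The ubiquitin ligase gene Neurl3 had -1.94, the Polycomb-related gene Scml4 -1.72, the neuritin gene Nrn1 -1.65 and Hcst, the signalling adaptor DAP10, -1.63, all on the log2 scale.

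**Figure D1:**
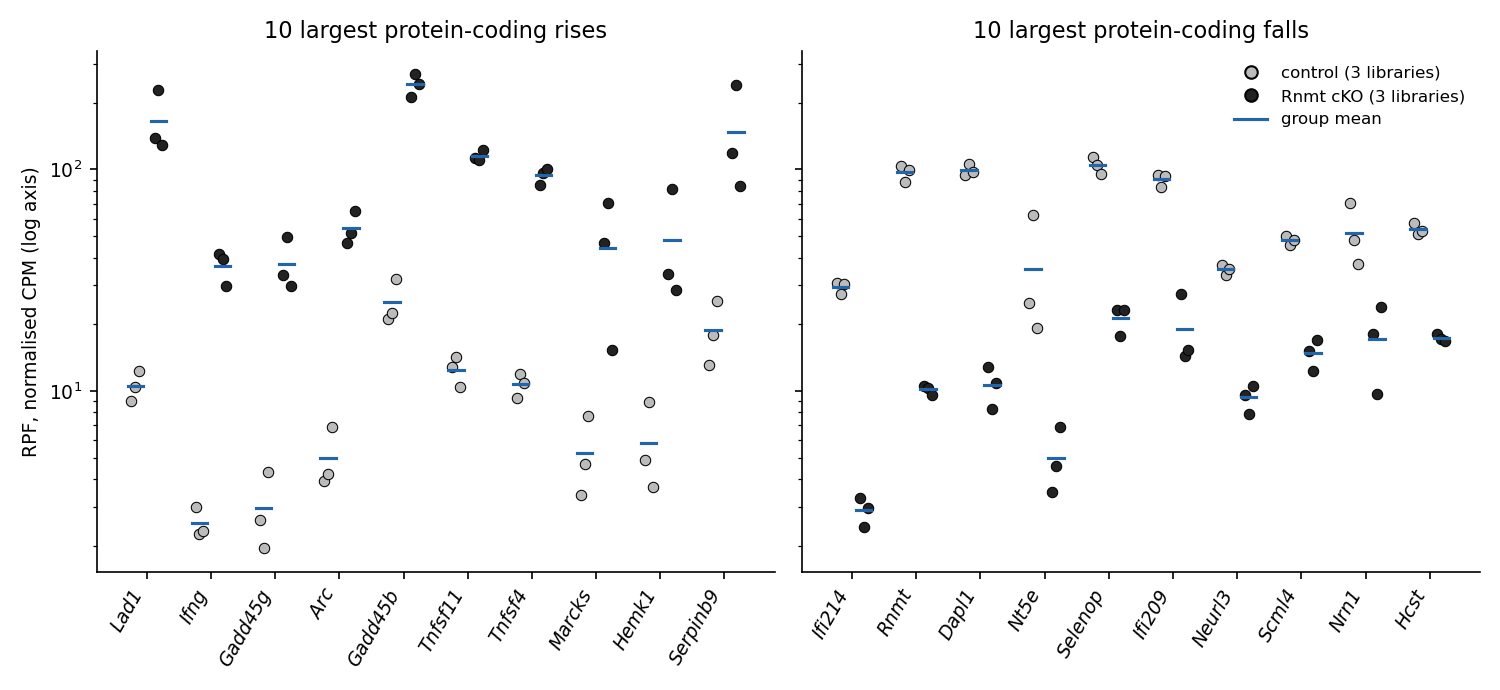
Normalised RPF levels (CPM, log axis) of the 10 largest protein-coding rises (left) and falls (right), with a point for each library (grey control, black Rnmt cKO) and a blue line at each group's mean. The groups do not overlap for any of these genes by the rule that chose them; Marcks, Hemk1, Serpinb9, Nt5e and Nrn1 are the most scattered.

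Genes are described by lists from here on, and each list's counts are to be read against the 14.1% of all genes that were higher and the 15.7% that were lower. Some list medians close to 0 were unstable. With single libraries left out, the medians of the helper T cell factors, 40S ribosomal proteins, ATF4 targets, aminoacyl-tRNA synthetases, sterol synthesis, splicing factors, selenoproteins and mitochondrial messages crossed 0.

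Of 12 cytokines and chemokines of effector T cells tested, 7 were higher and 0 lower, with a median log2 fold change of 1.58, against 0.008 over all genes tested. Besides Ifng, Lif, a cytokine of the IL-6 family, had 5.82, 6.18 and 12.01 CPM in controls and 35.1, 47.2 and 31.5 CPM in *Rnmt* cKO cells (2.26 ± 0.28 (SE)). Il2, the main T cell growth factor, had 9.30, 7.54 and 9.19 CPM in controls against 26.4, 37.5 and 29.04 CPM (1.83 ± 0.17 (SE), edgeR adjusted p = 2.2e-04). The chemokine Ccl3 had a log2 fold change of 1.79 ± 0.24 (SE). In none of these genes did a control reach an *Rnmt* cKO library. Tgfb1, the most abundant of the 12, was not called, nor were Csf1, Ccl5, Ltb and Tnf.

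Of 10 genes of cytotoxic granules, Gzma passed the filter on low counts through the *Rnmt* cKO libraries alone. Of the other 9, 5 were higher and 0 lower (median 1.10). Over the whole list the median was 1.34, and the lowest list median under any alternative run was 0.33. Gzmb, the protease granzyme B, had 30.2, 27.3 and 52.96 CPM in controls and 183, 199 and 166 CPM in *Rnmt* cKO cells (2.31 ± 0.22 (SE)). Nkg7, a granule membrane protein, had 9.39, 10.4 and 12.4 CPM in controls against 38.7, 32.9 and 35.7 CPM (1.74 ± 0.13 (SE)). Gzma was all but absent from controls, with 0, 0 and 1 reads against 45, 184 and 6 in *Rnmt* cKO cells. No fold is given at such counts. Among transcription factors of helper T cells, 6 of 19 were higher and 2 lower (median 0.06), with 3 higher when control replicate 2 was left out. Eomes, a T-box factor of cytotoxic cells, had 7.14, 4.37 and 12.3 CPM in controls and 52.3, 79.1 and 58.1 CPM in *Rnmt* cKO cells (2.98 ± 0.31 (SE)). Stat5a, which relays IL-2 signals, had 165, 174 and 164 CPM in controls against 367, 585 and 379 CPM (1.41 ± 0.17 (SE)). For Tbx21, the T-bet gene of Th1 cells, the controls ran from 8.36 to 53.7 CPM and the *Rnmt* cKO libraries from 76.04 to 115 CPM. Its log2 fold change of 1.83 was past the threshold in the full set but not when control replicate 2 (1.71), *Rnmt* cKO replicate 1 (1.73) or replicate 2 (1.77) was left out.

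NK cells share several of these genes, and their markers were read beside them. Ncr1, which defines NK cells, had 0, 0 and 2 reads in controls and 7, 11 and 4 in *Rnmt* cKO cells, and Klrb1c had 0 in all controls and 2, 7 and 0 in *Rnmt* cKO cells. Both were at or near 0 and did not pass the filter on low counts. Of the 3 other NK markers, Eomes was higher, while Klrk1 and Klrd1, with at most 58 reads, were not called, and the summed level of the list was 10.7, 7.08 and 20.8 CPM in controls against 58.9, 82.6 and 64.5 CPM, carried by Eomes, its most abundant gene. Cd8a had 142, 71 and 221 reads in controls and 151, 97 and 20 in *Rnmt* cKO cells, and neither it nor Cd8b1 was called. The part of such cells in these results was not tested. In bulk samples such as these, fewer cells of a type and less RNA per cell cannot be told apart.

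Immediate early genes, which are transcribed within minutes of a stimulus, were higher in 14 of 24 cases and lower in 2 (Egr3 and Btg2), with a median of 0.62. Ier3, which passed the filter through the *Rnmt* cKO libraries alone, is left out of this count. Jun, a subunit of the AP-1 factor, had 16.7, 15.1 and 28.7 CPM in controls and 120.4, 133 and 104 CPM in *Rnmt* cKO cells (2.57 ± 0.22 (SE)). Atf3, a stress-induced factor of the same superfamily, had 2.82, 4.37 and 4.54 CPM in controls against 19.5, 41.4 and 18.2 CPM (2.80 ± 0.36 (SE)). Myc was the most abundant member and was among the 14.

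Targets of p53 and members of the Bcl2 family, which set the threshold for cell death, were higher for 15 of 25 genes and lower for 2 (Sesn1 and Btg2), with a median of 0.62. Cdkn1a, the cell cycle inhibitor p21, had 31.3, 43.7 and 32.00 CPM in controls and 199.99, 203 and 206 CPM in *Rnmt* cKO cells. Its 3 *Rnmt* cKO libraries were almost identical and far above the highest control (2.52 ± 0.12 (SE), edgeR adjusted p = 2.7e-05). Phlda3, a p53 target that restrains Akt, had 32.4, 37.4 and 38.7 CPM in controls against 133, 138 and 136 CPM (1.91 ± 0.08 (SE)). Members of opposite function were higher together. Bcl2l1, which encodes the survival protein Bcl-xL, had 35.1, 41.8 and 32.6 CPM in controls and 144, 162 and 124 CPM in *Rnmt* cKO cells (1.98 ± 0.12 (SE)), and Pmaip1, the death-promoting protein Noxa, had a log2 fold change of 1.55 ± 0.20 (SE). Trp53 itself was not called.

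Of 19 cytokine receptor genes, 6 were higher (31.6%, against 14.1% of all genes) and 3 lower (15.8%, near the 15.7% of all genes), with a median of 0.20. Only 3 were higher without control replicate 2, and the median was 0.09 without control replicate 1. Il21r had 83.2, 82.5 and 88.8 CPM in controls against 301, 408 and 287 CPM (1.97 ± 0.13 (SE)), whereas Il6ra, the IL-6 receptor chain found on naive cells, had 74.5, 82.8 and 66.9 CPM in controls and 36.2, 25.3 and 42.1 CPM in *Rnmt* cKO cells (-1.14 ± 0.17 (SE)). Il12rb2, the inducible chain of the IL-12 receptor, had a log2 fold change of 1.57 and lost its call without control replicate 2 (1.71) or *Rnmt* cKO replicate 1 (1.64) or 2 (1.39). Among 21 costimulatory and inhibitory receptors and their ligands, 8 were higher (38.1%) and 5 lower (23.8%), with a median of 0.13. Beside Tnfsf11, the ligands and receptors Tnfsf8, Tnfrsf4, Tnfrsf9 and Tnfrsf18 were among the 8. Cd40lg, the ligand by which T cells help B cells, went the other way with 166, 146 and 154 CPM in controls against 51.3, 41.4 and 60.8 CPM (-1.62 ± 0.13 (SE)). Cd27, a costimulatory receptor of resting cells, had 224, 249 and 246 CPM in controls and 93.4, 86.8 and 103 CPM in *Rnmt* cKO cells (-1.35 ± 0.08 (SE), edgeR adjusted p = 5.3e-05), and the inhibitory receptor gene Pdcd1 (PD-1) had -1.33 ± 0.16 (SE).

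Components of T cell receptor signalling were lower for 11 of 24 (45.8%, against 15.7% of all genes) and higher for 5 (20.8%, against 14.1%; median -0.18; 8 to 10 and 3 to 5 with each library left out). Lck, the kinase that starts the cascade, had 459.7, 476 and 471 CPM in controls against 250.3, 229.6 and 253 CPM (-0.94 ± 0.06 (SE)). Cd3g, a chain of the receptor complex, had 911, 752 and 866 CPM in controls and 455, 417 and 446 CPM in *Rnmt* cKO cells (-0.94 ± 0.08 (SE)). Prkcq, the protein kinase C theta of the synapse, had 181, 180.1 and 177 CPM in controls against 101, 105 and 101 CPM (-0.81 ± 0.06 (SE)). None of these 3 genes overlapped between the genotypes. Trat1, an adaptor that stabilises the receptor, was the largest of the 5 rises with 1.22 ± 0.14 (SE). Genes of naive and homing T cells were lower for 9 of 19 (47.4%) and higher for 4 (21.1%), with a median of -0.15. With each library left out, 6 to 8 were lower and 2 to 3 higher, and the median went furthest, to -0.27, without *Rnmt* cKO replicate 2. Itgb7, an integrin chain for homing to the gut, had 234, 232 and 244 CPM in controls and 123, 113 and 132 CPM in *Rnmt* cKO cells (-0.95 ± 0.07 (SE)), and Cd44, a marker of antigen-experienced cells, was the largest rise with 56.3, 69.3 and 74.5 CPM in controls against 242, 406 and 195 CPM (2.09 ± 0.25 (SE)).

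The p200 family, a cluster of interferon-inducible genes for nucleic acid sensors on chromosome 1, had 8 genes tested, of which Ifi213 passed the filter on low counts through the controls alone. Of the other 7, 6 were lower and 0 higher (median -1.09). With Ifi213 the median was -1.66, or -1.89 to -0.97 with each library left out, the value nearest to 0 being that without control replicate 2, where Ifi213 no longer passed the filter. Ifi209 had 94.5, 83.7 and 93.5 CPM in controls and 27.5, 14.5 and 15.3 CPM in *Rnmt* cKO cells (-2.23 ± 0.22 (SE)), and Ifi208 had 11.6, 8.89 and 12.5 CPM in controls against 2.57, 1.46 and 0.738 CPM (-2.69 ± 0.35 (SE)). Aim2 (-0.99), Ifi206 (-1.09) and Mndal (-0.71) were also lower, whereas Ifi203 was not called. These genes are close copies of each other, and reads shared between them were left out by the counting. Of 30 other interferon-stimulated genes 5 were higher (16.7%) and 4 lower (13.3%), near the 14.1% and 15.7% of all genes (median 0.18; 3 to 7 higher with each library left out). Isg15, a ubiquitin-like modifier, had 2.91, 5.58 and 5.27 CPM in controls and 12.2, 11.03 and 12.3 CPM in *Rnmt* cKO cells (1.38 ± 0.26 (SE)), while Irgm2, an immunity-related GTPase, had 68.3, 85.02 and 111 CPM in controls against 47.5, 40.8 and 37.9 CPM (-1.06 ± 0.17 (SE)).

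RPF on the genes of the ribosome was close to level. Of 31 small-subunit (40S) ribosomal protein genes, 1 was higher and 1 lower, with a median of -0.09. Their summed level was 8585, 8407 and 8896 CPM in controls and 8832, 8942 and 8127 CPM in *Rnmt* cKO cells, and these ranges overlapped. Of 50 large-subunit (60S) genes, 3 were higher and 2 lower (median -0.03), and the sums of 8134, 7773 and 8347 CPM against 7524, 8385 and 7554 CPM overlapped too. Single libraries moved these 60S counts, to 0 higher and 5 lower without *Rnmt* cKO replicate 2 and to 3 and 0 without control replicate 1. Rps2 was higher, with 176, 148 and 169.9 CPM in controls and 284, 289 and 244 CPM in *Rnmt* cKO cells (0.73 ± 0.09 (SE)), and Rps9 lower, with 1238, 1139 and 1225 CPM in controls against 940.4, 1038 and 891 CPM (-0.33 ± 0.08 (SE), -0.31 and no longer called without *Rnmt* cKO replicate 1). The other calls were small, between -0.43 (Rpl22l1) and 0.29 (Rpl35a). They were lost without control replicate 1 for Rpl22l1 (-0.36) and without at least 4 of the 6 libraries, each left out in turn, for Rpl3, Rpl32, Rpl34 and Rpl35a. Over all libraries left out, with or without a call, the values were -0.39 to -0.26 for Rpl3, 0.22 to 0.34 for Rpl32, 0.20 to 0.32 for Rpl34 and 0.23 to 0.35 for Rpl35a. Ribosomal protein genes have many processed pseudogenes, with which single genes share reads, so the values of single members are uncertain.

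Total RNA gave a different picture for the same genes: 27 of the 31 small-subunit and 44 of the 50 large-subunit genes were lower there, with medians of -0.74 and -0.69, when 28% of all genes were lower in total RNA. The test of the difference between the 2 assays, an interaction term over all 12 libraries, was past the threshold for 19 and 27 of them, all toward higher RPF than total RNA, against 3.24% of all genes in that direction. Leaving out each library in turn gave 14 to 19 and 18 to 27 such genes. For Rps2 the genotype effect differed by 1.46 (log2) and for Rps9 by 0.87.

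Elongation factors and other messages with a 5′ terminal oligopyrimidine (TOP) tract, by which ribosomal protein messages are also marked, were higher for 4 of 23 and lower for 4, 17.4% each and near the shares of all genes (median -0.12; 2 to 4 higher and 2 to 6 lower with each library left out). In total RNA 14 of these 23 were lower and 1 higher (median -0.33), when 28% of all genes were lower there. The interaction term passed for 11 toward higher RPF and 1 toward lower, against 3.24% and 6.57% of all genes. Without *Rnmt* cKO replicate 1 it passed for 8 and 0. In RPF, Eif4a2, a paralog of the eIF4F helicase, had 161, 169 and 161 CPM in controls and 106, 111 and 101 CPM in *Rnmt* cKO cells (-0.62 ± 0.06 (SE)). Npm1, the nucleolar chaperone nucleophosmin, had 1054, 1069 and 1022 CPM in controls against 698, 691 and 659.98 CPM (-0.62 ± 0.06 (SE)). Ybx1, an mRNA-packaging protein, was higher in every *Rnmt* cKO library with 246, 267 and 244 CPM in controls and 339, 374 and 348 CPM in *Rnmt* cKO cells (0.48 ± 0.06 (SE)). Among 32 initiation factors, 9 were higher and 0 lower (median 0.06), led by Eif1a, which helps to scan for the start codon, with 128, 110.2 and 116 CPM in controls against 195, 178 and 174 CPM (0.62 ± 0.08 (SE)), and by Eif6, which keeps the ribosomal subunits apart, with 0.56 ± 0.06 (SE). Aminoacyl-tRNA synthetases, which charge tRNAs, were higher for 1 of 21 (Farsa, 0.26) and lower for 3 (Eprs, Lars and Dars, -0.33 to -0.26). Leaving out single libraries ended each of these calls, at values of 0.195 to 0.28 for Farsa and -0.32 to -0.18 for the others.

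Factors that assemble ribosomes were higher for 16 of 47 and lower for 3 (median 0.14). Without *Rnmt* cKO replicate 1, 2 or 3 the lower count was 1 each time, with 13, 11 and 18 higher. Nop16 had 147, 133 and 152 CPM in controls and 199, 214 and 211 CPM in *Rnmt* cKO cells (0.53 ± 0.07 (SE)), whereas Ddx21, a nucleolar helicase, had 909, 973 and 978 CPM in controls against 636, 734 and 613 CPM (-0.53 ± 0.08 (SE)). In total RNA 40 of the 47 were higher (median 0.63), and the interaction term was past the threshold for 23 toward lower RPF and 1 toward higher, when 6.57% of all genes were lower by that test (16 to 23 with each library left out). For Ddx21 the groups differed in opposite directions in the 2 assays (0.67 in total RNA, interaction -1.20). Subunits and factors of RNA polymerases I and III, which transcribe rRNA and tRNA, were higher for 9 of 29 and lower for 4 (median 0.18), or 4 to 6 and 0 to 2 with each library left out. Rrn3, the initiation factor of polymerase I, had 171, 165 and 169 CPM in controls and 230.3, 235 and 223 CPM in *Rnmt* cKO cells (0.45 ± 0.05 (SE)).

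In the list of cap enzymes and cap-binding proteins, 5 of 18 were higher (27.8%, against 14.1% of all genes) and 3 lower (16.7%, near the 15.7% of all genes), with a median of 0.13 and with 3 higher when *Rnmt* cKO replicate 1 or 2 was left out. The 3 lower genes include *Rnmt* itself, the deleted gene. Cmtr2, which methylates the ribose of the second transcribed base, had 27.1, 30.3 and 26.1 CPM in controls against 42.6, 43.6 and 44.3 CPM (0.64 ± 0.09 (SE)). Dcp2, the decapping enzyme, had 45.1, 47.5 and 40.8 CPM in controls and 74.5, 62.98 and 69.1 CPM in *Rnmt* cKO cells (0.63 ± 0.09 (SE)), and Xrn1, the exonuclease that follows decapping, had 93.1, 91.5 and 96.4 CPM in controls against 65.2, 62.9 and 53.4 CPM (-0.62 ± 0.09 (SE)). Rngtt, which adds the guanosine, and Ncbp1, the large subunit of the nuclear cap-binding complex, were not called.

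In glycolysis 13 of 20 genes were lower and 2 higher (Hk2, 0.94, and the lactate transporter Slc16a1, 0.28, whose call was lost on leaving out any 1 of 5 libraries, at 0.20 to 0.34), with a median of -0.45, and the sum of the list fell from 6265, 5872 and 6091 CPM in controls to 4305, 4311 and 4077 CPM in *Rnmt* cKO cells, with no overlap. Tpi1, triose phosphate isomerase, had 608, 669 and 598 CPM in controls and 281, 296 and 325 CPM in *Rnmt* cKO cells (-1.06 ± 0.08 (SE), edgeR adjusted p = 8.9e-05). Slc16a3, the lactate exporter MCT4, had 46.8, 36.03 and 52.7 CPM in controls against 25.3, 22.7 and 18.7 CPM (-1.01 ± 0.16 (SE)). Pgk1 had only 1.23 to 3.17 CPM per library, and its call was lost without each single library in turn (log2 fold changes of -1.10 to -0.90).

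For fatty acid oxidation, 15 of 27 genes were lower and 0 higher (median -0.40; 13 to 15 lower with each library left out). Decr1, a reductase for unsaturated fatty acids, had 47.5, 38.1 and 38.7 CPM in controls and 23.5, 21.97 and 17.5 CPM in *Rnmt* cKO cells (-0.97 ± 0.14 (SE)). Etfa, which passes electrons from the acyl-CoA dehydrogenases, had 153, 121 and 134 CPM in controls against 86.2, 86.9 and 79.97 CPM (-0.69 ± 0.09 (SE)). In the TCA cycle 8 of 25 were lower (32%, against 15.7% of all genes) and 2 higher (8%, against 14.1%), with a median of -0.11 that was -0.02 without *Rnmt* cKO replicate 3, among them Sdhb, a subunit of succinate dehydrogenase, with 356, 329 and 346 CPM in controls and 204, 225 and 203 CPM in *Rnmt* cKO cells (-0.70 ± 0.06 (SE)). The 83 nuclear genes of the respiratory chain were near level (7 higher, 11 lower, median -0.02; 3 to 6 and 7 to 10 with each library left out). None of the 8 mitochondrial messages tested, which carry no cap and are translated inside the organelle, was called by edgeR (median 0.13, -0.15 without *Rnmt* cKO replicate 3); mt-Cytb had 338, 398 and 330.1 CPM in controls against 343, 377 and 618 CPM, and *Rnmt* cKO replicate 3 alone was high. Without a filter on low counts mt-Cytb (0.28) and mt-Nd5 (0.24) were called higher.

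Mitochondrial ribosomal proteins were higher for 13 of 77 (16.9%) and lower for 9 (11.7%), near the 14.1% and 15.7% of all genes (median 0.09; 6 to 11 higher with each library left out). Mrpl23 was the largest rise, at 2.54, 1.66 and 1.84 CPM in controls and 10.9, 9.28 and 9.35 CPM in *Rnmt* cKO cells (2.26 ± 0.24 (SE)). Sterol and fatty acid synthesis, with 5 of 34 higher (14.7%) and 7 lower (20.6%), was near these shares too (median 0.01; 3 to 6 in each direction with each library left out). Insig1, which restrains sterol synthesis, had 34.7, 33.9 and 37.6 CPM in controls against 62.6, 68.3 and 65.7 CPM (0.89 ± 0.08 (SE)), and Nsdhl, an enzyme of cholesterol synthesis, had -0.83 ± 0.11 (SE). For nucleotide synthesis 2 of 23 were higher and 5 lower (median -0.14; 3 to 5 lower with each library left out). Impdh2, the rate-limiting enzyme of guanine nucleotide synthesis, had 38.3, 36.2 and 30.3 CPM in controls and 15.2, 21.2 and 14.03 CPM in *Rnmt* cKO cells (-1.03 ± 0.17 (SE)). Targets of ATF4, the factor of the integrated stress response, with the one-carbon pathway were higher for 8 of 23 and lower for 4 (median 0.08), or 4 to 7 higher with each library left out, the fewest without *Rnmt* cKO replicate 2. They were led by Sesn2 with 16.7, 18.4 and 14.1 CPM in controls against 49.97, 52.7 and 52.4 CPM (1.66 ± 0.11 (SE)). Atf4 itself had 174, 134 and 185 CPM in controls and 273, 231 and 250.3 CPM in *Rnmt* cKO cells (0.61 ± 0.12 (SE)) without a call in total RNA, and the interaction term passed for it (0.51, edgeR adjusted p = 0.039).

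Replication-dependent histones, whose messages end in a stem-loop instead of a poly(A) tail, were the largest list of rises by count, with 37 of 54 higher and 1 lower (median 0.82; 30 to 44 higher when each library was left out in turn). Hist1h2ag had 15.7, 18.7 and 17.8 CPM in controls against 78.99, 50.6 and 56.6 CPM (1.84 ± 0.17 (SE)), and Hist1h4i had 5.26, 6.48 and 5.27 CPM in controls and 19.7, 12.8 and 17.5 CPM in *Rnmt* cKO cells (1.55 ± 0.21 (SE)). The groups did not overlap for either. Summed over the list, control replicate 2 was high, with 6478, 10284 and 6523 CPM in controls and 13720, 11580 and 11429 CPM in *Rnmt* cKO cells. Histone genes are near-identical copies, and reads that aligned to several were not counted. DNA replication genes went the other way in smaller steps: 17 of 45 were lower and 3 higher (median -0.11; 11 to 18 lower with each library left out). Mcm6, a subunit of the replicative helicase, had 1843, 1759 and 1689 CPM in controls against 1298, 1335 and 1231 CPM (-0.45 ± 0.07 (SE)). Rfc2, of the clamp loader, had -0.62 ± 0.07 (SE). Of 26 cyclins, their kinases and partners, 6 were higher (23.1%, against 14.1% of all genes) and 2 lower (7.69%, against 15.7%), with a median of 0.11. With each library left out 6 to 7 were higher and 1 to 4 lower, the most lower without *Rnmt* cKO replicate 3. Ccnd2, cyclin D2, had 1181, 1152 and 1299 CPM in controls and 1680.2, 1735 and 1737 CPM in *Rnmt* cKO cells (0.50 ± 0.07 (SE)).

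The most densely occupied messages were compared per kilobase of coding sequence. In controls the 7 highest densities (mean CPM per kilobase) were those of Tmsb4x at 28065, Actb at 15027, Cd52 at 8817, B2m at 7641, Pfn1 at 7290.2, Tubb5 at 3727 and Eif5a at 3664. In *Rnmt* cKO cells Tmsb4x, which sequesters actin monomers, fell to 17842. Its levels were 4644, 3984 and 4254 CPM in controls against 2871, 2477 and 2842 CPM (-0.65 ± 0.09 (SE)). Actb, beta-actin, had 18025, 15374 and 17724 CPM in controls and 12439, 12821 and 12431 CPM in *Rnmt* cKO cells (-0.44 ± 0.09 (SE)). The surface protein gene Cd52 (-0.64), Pfn1 (-0.27, not called without any 1 of 4 libraries, at -0.27 to -0.24) and Tubb5 (-0.36) were lower as well, whereas B2m and Eif5a were not called. Among 25 genes of actin and the cytoskeleton 11 were lower and 1 higher (median -0.27), and the sum of the list was 41536, 38528 and 40960 CPM in controls against 29844, 29443 and 29405 CPM. Myh9, the heavy chain of non-muscle myosin, had 3372, 3765 and 3598 CPM in controls against 1894, 1837 and 1898 CPM (-0.93 ± 0.07 (SE), edgeR adjusted p = 1.0e-04).

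Footprints were spread over more genes in *Rnmt* cKO cells. The 10 most abundant protein-coding genes held 5.68, 5.37 and 5.66% of protein-coding reads in controls and 4.49, 4.56 and 4.70% in *Rnmt* cKO cells. The smallest set of genes that held 50% of these reads was 865, 876 and 867 genes in controls and 927, 903 and 930 in *Rnmt* cKO cells. Neither measure overlapped between the groups in RPF. The exact permutation test (two-sided) gave p = 0.1 for both, the smallest that 3 against 3 allows. Total RNA had the same order without overlap. There the 10 most abundant held 5.30, 5.26 and 5.01% in controls and 3.98, 3.73 and 4.01% in *Rnmt* cKO cells. The set that held 50% was 1073, 1071 and 1090 genes in controls and 1121, 1126 and 1102 in *Rnmt* cKO cells.

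Of the protein quality lists, the proteasome had 8 of 47 higher and 5 lower (median 0.05; 3 to 9 higher with each library left out) and chaperones 3 of 20 higher and 2 lower (median 0.05), without Hspa1b, which passed the filter on low counts through 1 genotype alone. The proteasome's shares, 17% and 10.6%, were near the 14.1% higher and 15.7% lower of all genes. Dnajb1, a co-chaperone of Hsp70, had 119, 128 and 118 CPM in controls and 87.4, 87.8 and 90.3 CPM in *Rnmt* cKO cells (-0.46 ± 0.06 (SE)), although its total RNA was higher (0.84, interaction -1.30). Genes that regulate mRNA decay were higher for 3 of 27 and lower for 8 (median -0.01; 1 to 3 higher and 5 to 6 lower with each library left out). Zfp36l1, which binds AU-rich elements, had 402, 415 and 470.1 CPM in controls against 282, 237 and 283 CPM (-0.68 ± 0.09 (SE)), again with higher total RNA (0.45). For SR and hnRNP splicing factors 3 of 29 were higher (10.3%) and 5 lower (17.2%), near the same shares of all genes (median 0.06). Pcbp1, a poly(C)-binding protein encoded without introns, had 1007, 1133 and 1095 CPM in controls and 662, 709 and 694 CPM in *Rnmt* cKO cells (-0.65 ± 0.07 (SE)) against 1.83 in total RNA, and Hnrnpl had -0.42 ± 0.07 (SE) against 0.85. Selenoproteins were higher for 2 of 17 and lower for 4, with a median of 0.01 that lay between -0.14 and -0.003 with each library left out. Beside Selenop, the mitochondrial thioredoxin reductase Txnrd2 had 51.2, 56.1 and 46.6 CPM in controls against 27.03, 28.8 and 26.3 CPM (-0.90 ± 0.10 (SE)), and its cytosolic relative Txnrd1 was higher (0.49 ± 0.06 (SE)). The polyamine list had 2 of 11 higher and 1 lower (median 0.14), of which Dohh, which completes the hypusine of eIF5A, was the largest (0.57 ± 0.10 (SE)). With *Rnmt* cKO replicate 1 or 2 left out, 1 of the 11 was higher and 0 lower, and without replicate 3 the counts were 3 and 1.

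Beside total RNA, in which 54.2% of 11519 genes were called, most RPF calls had a counterpart. Of 1796 genes with lower RPF, 1371 were also lower in total RNA, 314 were not called there and 93 were higher. Of 1612 with higher RPF, 1141 were also higher in total RNA, 390 were not called and 19 were lower. Of the genes not called in RPF, 1699 were lower and 1557 higher in total RNA. The interaction term was past the threshold for 1047 of 10668 genes (9.81%), 346 toward higher RPF than total RNA and 701 toward lower. These counts were sensitive to single libraries, with 122 (higher) and 443 (lower) without control replicate 2, 125 and 415 without control replicate 1, and 136 and 418 without *Rnmt* cKO replicate 1.

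A change in RPF with no call in total RNA and a passing interaction term was found for 55 genes with higher and 62 with lower RPF. Both counts cover only protein-coding genes with an average of at least 4 log2 CPM. The largest rises and falls among them are named here, and these rises were small. Nubpl, an assembly factor of complex I, had 12.2, 9.65 and 12.9 CPM in controls and 21.5, 22.8 and 22.1 CPM in *Rnmt* cKO cells (0.93 ± 0.14 (SE)), and Stx16, a Golgi syntaxin, had 12.2, 12.5 and 14.6 CPM in controls against 21.4, 21.2 and 24.4 CPM (0.76 ± 0.13 (SE)). Caap1 had 0.65 ± 0.11 (SE). The largest fall was that of Gm17087, with 68.2, 84.4 and 58.6 CPM in controls and 15.6, 31.1 and 30.3 CPM in *Rnmt* cKO cells (-1.47 ± 0.25 (SE)), followed by Capza1, which caps actin filaments, with 58.4, 68.3 and 54.9 CPM in controls against 27.03, 40.1 and 39.4 CPM (-0.77 ± 0.16 (SE)) and by the mitochondrial serine transporter family member Sfxn3 with -0.75 ± 0.11 (SE). None of the 6 overlapped between the genotypes in RPF. *Rnmt* belongs beside them, since its RPF fell by more than its total RNA (-1.62; interaction -1.62 ± 0.11 (SE), edgeR adjusted p = 3.2e-06).

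**Figure D2:**
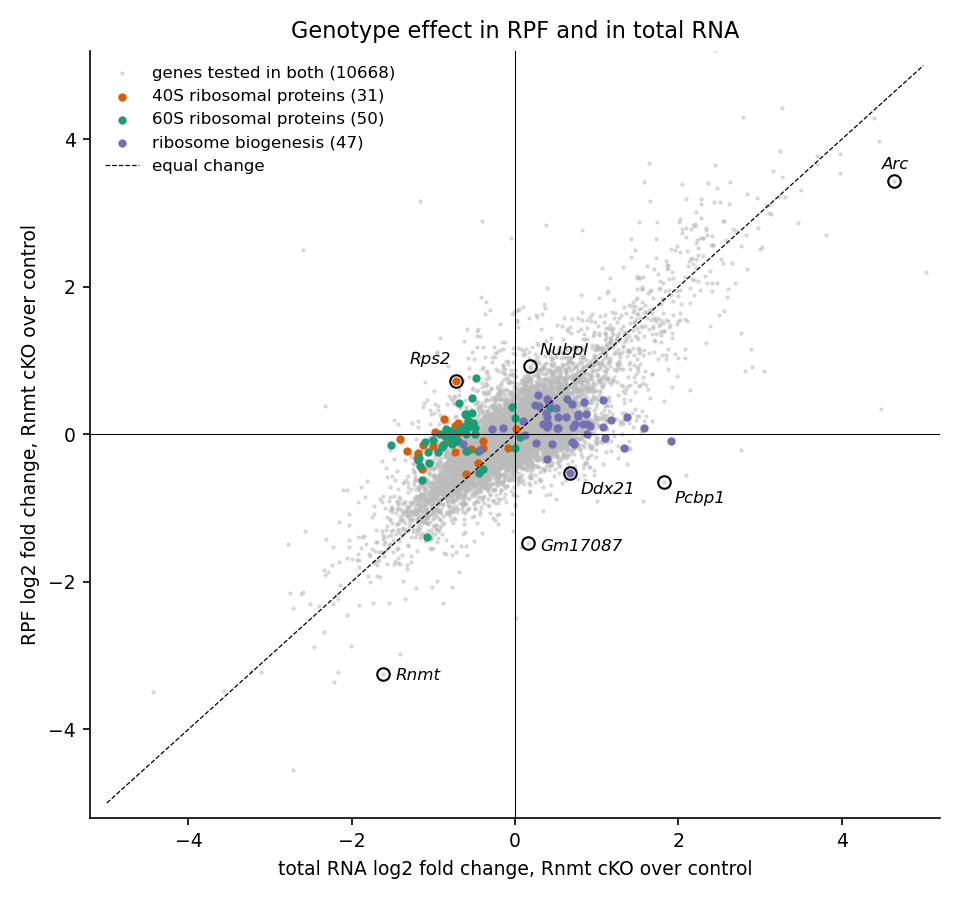
Each grey point is 1 of 10668 genes tested in both assays, with its total RNA log2 fold change on the horizontal and its RPF log2 fold change on the vertical axis (3 genes fall outside the frame); coloured points are 40S (orange) and 60S (green) ribosomal protein genes and ribosome biogenesis factors (purple), and the dashed line marks equal change. The ribosomal protein genes lie left of the line around an RPF change of 0 and most biogenesis factors right of it, and Rnmt, Pcbp1, Gm17087 and Ddx21 lie below the line.

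The RPF files also count reads on RNAs that are not translated. Of 116 snoRNA genes, 26 were higher and 3 lower (median 0.62), and of 101 snRNA genes 19 were higher and 3 lower (median 0.54). The summed share of snRNA reads did not follow that count, at 1.57, 1.71 and 1.59% in controls and 1.24, 1.20 and 1.61% in *Rnmt* cKO cells. Among genes with an average of at least 4 log2 CPM, the largest of these rises were of 2 snoRNAs that are made from genes of their own and not cut from introns. Snord118 (the U8 snoRNA, needed to process the large rRNA; ENSMUSG00000064899, chromosome 11, 69073427 to 69073561, plus strand) had 17.1, 37.1 and 45.97 CPM in controls and 175, 281 and 821 CPM in *Rnmt* cKO cells (3.68 ± 0.61 (SE), edgeR adjusted p = 0.0032). Snord13 (U13, which acts on the small rRNA) had 27.6, 17.8 and 24.3 CPM in controls against 107, 112 and 320.1 CPM (2.92 ± 0.43 (SE)). *Rnmt* cKO replicate 3 was the highest library for both, while replicates 1 and 2 still stood above all controls. The sequence of Snord118 is shown, from GENCODE vM21, because it was the largest non-coding rise at that abundance. Capitals mark TGATGA, the letters of the C box by which this class is known, read on the RNA strand only:
Snord118: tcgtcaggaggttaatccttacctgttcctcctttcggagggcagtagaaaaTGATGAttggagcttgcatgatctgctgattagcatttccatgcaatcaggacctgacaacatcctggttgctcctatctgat
TGATGA occurred once in it, and was found in 5.34% of the 4960 annotated transcripts of 80 to 160 bases and in 12.3% of the 1181 snoRNA transcripts of that length.

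The share of snoRNA reads was 0.847, 0.963 and 1.01% in controls and 1.00, 1.05 and 1.56% in *Rnmt* cKO cells. Without *Rnmt* cKO replicate 3, 13 snoRNA genes were higher and 5 lower (median 0.39), and without control replicate 1, 9 were higher and 3 lower (median 0.50). Other settings raised the count, to 57 higher and 8 lower with the replicate number as a block and to 39 and 6 by edgeR's exact test. For snRNA genes, 7 were higher and 4 lower without *Rnmt* cKO replicate 3, and 5 and 4 without control replicate 1. In the other direction, the largest non-coding falls at an average of at least 4 log2 CPM were all of snoRNA host genes and of a snoRNA. Snhg3 (chromosome 4) had 54.5, 39.5 and 36.3 CPM in controls and 8.89, 7.32 and 10.6 CPM in *Rnmt* cKO cells (-2.32 ± 0.20 (SE)), and Snora73b, which lies within Snhg3 on the same strand, had 1164, 1390.4 and 1018 CPM in controls against 140.3, 407 and 450.1 CPM (-1.84 ± 0.37 (SE)). With the counts of both strands added, Snhg3 was at 0.04 and not called. Zfas1, the other host gene, had 96.4, 87.9 and 88.9 CPM in controls and 23.3, 21.4 and 16.5 CPM in *Rnmt* cKO cells (-2.14 ± 0.12 (SE)).

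Reads of miRNA genes were few and uneven. Of 83 miRNA genes tested, 7 were higher and 0 lower (median 1.35), and 1 was called when either *Rnmt* cKO replicate 3 or control replicate 1 was left out, against 14 without *Rnmt* cKO replicate 1, 15 by edgeR's exact test and 33 with the replicate number as a block. Mir484 had 1.69, 7.69 and 11.3 CPM in controls against 15.8, 24.3 and 128 CPM (3.01 ± 0.89 (SE)), and its call was lost without *Rnmt* cKO replicate 3 (1.59), control replicate 1 (2.47) or control replicate 2 (3.10). Control replicate 1 was lowest and *Rnmt* cKO replicate 3 highest for it, as for the miRNA class as a whole. Mir221 and Mir132, chosen after their values were seen, had the same order of extremes: Mir221 had 0.282, 0.904 and 3.19 CPM in controls and 5.38, 6.25 and 20.4 CPM in *Rnmt* cKO cells and Mir132 0.0939, 2.11 and 5.76 CPM in controls against 10.2, 9.18 and 51.9 CPM. The counts are of the whole hairpin gene and do not tell its arms apart. Mature sequences were in the RefSeq table (GRCm38.p6) for 5 of the 7, and those of these 3 hairpins are printed because their hairpins had the largest miRNA values named here, with the seed (bases 2 to 8) in capitals:
mmu-miR-484: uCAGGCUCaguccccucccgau
mmu-miR-221-5p: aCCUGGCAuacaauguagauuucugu
mmu-miR-221-3p: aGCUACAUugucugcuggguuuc
mmu-miR-132-5p: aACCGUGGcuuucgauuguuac
mmu-miR-132-3p: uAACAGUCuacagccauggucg
All 5 seeds differ.

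Features of the messages were compared with the RPF change as a description. Across 10321 protein-coding genes, which are not independent of each other, Spearman's rho between coding length and log2 fold change was -0.06. In the shortest quartile (111 to 902 bases) 465 genes were higher and 354 lower, and in the longest (from 2272 bases) 305 were higher and 484 lower, with medians of 0.04 and -0.03. By the first transcribed base of the RefSeq start, available without ambiguity for 7075 genes, the medians lay within 0.03 of each other: -0.002 for A (1875 genes), 0.02 for C (1021), -0.01 for G (3542) and 0.01 for T (637). For 157 genes whose RefSeq start is a C followed by 4 pyrimidines, 12.7% were higher and 14.6% lower (median 0.04). RefSeq starts are not the starts used in these cells.

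Of the 6 B cell markers, Ms4a1 (CD20) was the most abundant, with 26, 5 and 90 reads in controls and 355, 528 and 26 in *Rnmt* cKO cells. The groups overlapped because *Rnmt* cKO replicate 3 was low and control replicate 3 high. Of the 6, Cd79b, Ebf1 and Ms4a1 were called higher (median over the list 2.22), 0 were called when *Rnmt* cKO replicate 1 or 2 or control replicate 1 was left out (medians of 1.87 to 1.99), and 6 without *Rnmt* cKO replicate 3 (2.65). With the replicate number as a block 0 were called (median 2.19), and with protein-coding genes alone 6 were (2.25). Markers of myeloid cells (Lyz2, Csf1r, Itgam, Adgre1, S100a8 and S100a9) had at most 2 reads in any library, and of the 8 listed only Cd68 and Cst3 passed the filter, neither called. Erythroid genes had at most 8 reads. Of 5 genes of regulatory T cells, Il2ra, Tnfrsf18 and Ikzf2 were higher. Ikzf2 lost its call without any 1 of 5 libraries, at 1.00 to 1.47. Foxp3, the defining factor of these cells, had 55, 44 and 51 reads in controls and 37, 56 and 25 in *Rnmt* cKO cells. Ctla4 had 1624, 1017 and 946 reads in controls and 908, 667 and 478 in *Rnmt* cKO cells. Neither Foxp3 nor Ctla4 was called. Without *Rnmt* cKO replicate 3 1414 genes in all were higher and 1526 lower.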

How the data were processed

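RPF and cytoplasmic total RNA were prepared with a ribosome profiling kit for mammalian cells and sequenced on a NextSeq, and the authors used the second read. Per the submitters' notes and the study's methods, adapters were trimmed with cutadapt, rRNA and tRNA reads were removed with Bowtie, and reads were aligned with STAR 2.5.2b to mm10 with GENCODE vM12. STAR's deposited counts per gene on the reverse strand are unnormalised and leave out multimapping and ambiguous reads. A deposited table of normalised signal values, log2 fold changes and p-values of the authors' own comparisons was not used. Symbols and positions are from GENCODE vM21 (GRCm38), matched for 49326 of 49585 genes.

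Genes above 1 CPM in at least 3 of the 6 RPF libraries were tested with edgeR 4.0.16 in R 4.3.3 (TMM factors, quasi-likelihood F test, Benjamini-Hochberg adjustment over all genes tested, threshold 0.05). The interaction of genotype and assay was tested likewise over all 12 libraries. CPM are TMM-normalised, and errors of fold changes are standard errors of the fit. Counting error is only part of the spread between libraries. The scripts were tested on simulated data. Alternatives were DESeq2 1.42.0, edgeR's exact test, library size alone, no filter, at least 10 counts in every library, both strands, protein-coding genes alone, a replicate block and each replicate left out. Members and lists were chosen with earlier results of these data known. Named genes were *Rnmt*, Ramac, 4 T cell genes, the 10 largest protein-coding rises and falls with no overlap, the 3 largest non-coding rises and falls, the 8 highest footprint densities, up to 4 members a list by size of change, and the 3 largest rises and falls in RPF without a call in total RNA. These sets of rises and falls, unlike the lists, were limited to genes with an average of at least 4 log2 CPM. Any other gene named was chosen after its values were seen. A few items that this rule would name are not reported here.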

Additional observations from a re-analysis of the deposited data

Results flagged for a closer look

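Of 1047 genes whose genotype effect differed between RPF and total RNA by edgeR's interaction test, 7 were flagged. They were *Rnmt* and the 3 largest rises and falls in RPF, at an average of at least 4 log2 CPM, that had no call in total RNA. The difference of the log2 fold changes was -1.62 for Rnmt (edgeR adjusted p = 3.2e-06). Toward higher RPF it was 0.75 for Nubpl (edgeR adjusted p = 0.02), 0.60 for Stx16 (0.0083) and 0.53 for Caap1 (0.029). Toward lower RPF it was -1.63 for Gm17087 (edgeR adjusted p = 0.0098), -0.73 for Capza1 (0.019) and -0.58 for Sfxn3 (0.032). These genes were picked by this same test, and with both strands counted Caap1 was no longer called in RPF (0.45).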

How the results depend on the processing

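The counts of RPF calls stayed within 1.5 times under every alternative run. Higher genes numbered 1085 to 1414 and lower genes 1264 to 1526 when each library was left out in turn, and 0 genes were called in the opposite direction under the settings that kept all libraries. DESeq2 gave 1469 higher and 1419 lower, and library size alone gave 1723 and 1593. Genes whose genotype effect differed between RPF and total RNA ranged from 122 to 367 (higher) and from 415 to 812 (lower) when libraries were left out. The fewest were found without control replicate 2 (122 and 443), control replicate 1 (125 and 415) and *Rnmt* cKO replicate 1 (136 and 418). Total RNA calls ranged from 2303 to 3145 and from 2585 to 3151. Of the named genes called in RPF, Snhg3 changed direction, at 0.037 with both strands counted; the cause was not tested. Of those not called, Ramac (-0.27 to 0.23 with each library left out), mt-Nd5 (-0.02 to 0.42) and Cd4 (-0.06 to 0.002) crossed 0. With the replicate number as a block, 1596 genes were higher and 1636 lower. Deviations of same-numbered control and *Rnmt* cKO libraries correlated at 0.48, -0.10 and 0.25. With 3 libraries a genotype, these values cannot settle whether same-numbered libraries share more than a number. The main test treats them as sharing only a number. A tie between same-numbered RPF and total RNA libraries of a genotype was not tested. The interaction was also fitted with each same-numbered pair of RPF and total RNA libraries of a genotype as a block. It then passed toward higher RPF for 21 of the 40S and 26 of the 60S genes. It passed toward lower RPF for 25 ribosome biogenesis factors. The shallowest library, *Rnmt* cKO replicate 3, limits what can be seen in genes of low counts.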
